A study of Mus musculus with 4 samples.

Results

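The 6 Fc receptor genes Fcgr1, Fcgr2b, Fcgr3, Fcgr4, Fcer1g and Fcgrt were followed through colonic monocytes and macrophages of mice on chow or on a coconut-based high-fat diet (HFD). They were taken by name from the 11820 genes of the single-cell table, and all 6 were found. They were selected on measured values, chosen by their levels over the stages from monocyte to macrophage and by their change with diet, with Fcgr4 in monocytes on HFD among the reasons, so the levels below are a description, and the FDR values beside them describe these mice and support nothing further.

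The study asked which pathways change in colonic macrophages within 1 week of HFD. Male C57/Bl6N mice of 6 to 7 weeks received chow (replicates 9 and 11, called chow 9 and chow 11) or the coconut-based HFD (replicates 1 and 3, called HFD 1 and HFD 3) for 1 week, and each mouse gave 1 single-cell library of lamina propria cells. Cells had been sorted as live CD45+ Lin- CD11b+ CD24- cells with Ly6C or CD64 on their surface. CD64 is the protein made from Fcgr1, so that gene helped to decide which cells entered, and its level between stages is no finding. The libraries held 904 and 2002 cells in chow 9 and chow 11 and 966 and 1548 cells in HFD 1 and HFD 3, with 3832283, 7947893, 3824228 and 5584175 unique molecular identifiers (UMIs, 1 per captured RNA molecule). Between mice, 23 cell barcodes were shared.

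Fc receptors bind the constant part of antibodies and so let a phagocyte respond to what an antibody has coated. Fcgr1, Fcgr3 and Fcgr4 encode activating IgG receptors, which signal through the common gamma chain encoded by Fcer1g, while Fcgr2b encodes the inhibitory IgG receptor, whose tail recruits phosphatases. Fcgrt encodes the heavy chain of the neonatal Fc receptor, an MHC class I-like molecule that salvages IgG from degradation inside cells. Monocytes enter the colon with Ly6C on their surface, gain MHC class II and lose Ly6C, and become resident macrophages rich in complement C1q.

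On GRCm38, 4 of the 6 genes lie within 275.7 kb of chromosome 1: Fcgr2b at 170958617 to 170976547 on the minus strand, Fcgr4 at 171018920 to 171029761 on the plus strand, Fcgr3 at 171051174 to 171064935 on the minus strand and Fcer1g at 171229572 to 171234365 on the minus strand. Fcgr1 lies on chromosome 3 (96282909 to 96293969, minus strand) and Fcgrt on chromosome 7 (45092990 to 45103851, minus strand). All are protein-coding. Of the 31-base words in the transcripts of Fcgr3, 13.4% were shared with Fcgr2b, and within the last 500 bases, where a 3′ library reads, 0.520% were. Of the words in that window, 3.40% were shared with other genes for Fcgr4, 3.06% for Fcgr2b and 1.87% for Fcgrt, none of them with another member for Fcgr4 and Fcgrt. Fcgr1 and Fcer1g shared no word with another gene.

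The promoters of Fcgr4 and Fcgr1 are shown because these are the activating receptors whose level on the monocyte side stood highest on HFD relative to chow. Both run 5′ to 3′ on the strand of the gene, from 250 bases before the RefSeq start to 50 after it (GRCm38.p6), with matches in capitals.
Fcgr4, chr1:171018676-171018975, plus strand: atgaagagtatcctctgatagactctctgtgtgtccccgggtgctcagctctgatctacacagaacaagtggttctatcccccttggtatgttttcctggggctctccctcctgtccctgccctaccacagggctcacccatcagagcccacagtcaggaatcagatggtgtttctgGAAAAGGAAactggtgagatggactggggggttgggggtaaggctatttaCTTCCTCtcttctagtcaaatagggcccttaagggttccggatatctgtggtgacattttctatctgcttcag
Fcgr1, chr3:96293920-96294219, minus strand: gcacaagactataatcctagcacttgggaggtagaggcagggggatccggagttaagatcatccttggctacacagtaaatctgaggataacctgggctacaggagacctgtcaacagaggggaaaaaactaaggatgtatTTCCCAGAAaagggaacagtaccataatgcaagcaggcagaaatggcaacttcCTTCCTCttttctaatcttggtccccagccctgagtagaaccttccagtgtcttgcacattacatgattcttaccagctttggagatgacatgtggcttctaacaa
The 3 motifs were searched on both strands. GAAANNGAA, the core of an interferon-stimulated response element, matched 73 bases before the start of Fcgr4 and no other member, and 8.56% of 32851 promoters of this length held it. TTCNNNGAA, a STAT-type gamma-activated site, matched 109 bases before the start of Fcgr1 and no other member, against 8.30% of promoters. GAGGAAG, a PU.1-type motif, matched Fcgr1, Fcgr3 and Fcgr4, against 13.6% of promoters. A match of these letters describes the sequence and is no evidence of binding.

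Stages were ranges of marker levels, not sorted populations. Cells with a Ly6c2 UMI and little MHC II and C1q RNA were called Ly6C+ MHC II-low (the monocyte stage), cells with a Ly6c2 UMI and high MHC II were Ly6C+ MHC II-high, those without Ly6c2 but with high MHC II were Ly6C- MHC II-high, and cells high in C1qa, C1qb and C1qc were C1q-high. Of all cells, 7.92% lay within 1 log2 unit of the C1q limit and 11.1% within 1 log2 unit of the MHC II limit. The monocyte stage held 7.30% and 3.397% of the cells of chow 9 and chow 11 and 28.99% and 20.99% of those of HFD 1 and HFD 3, while C1q-high cells made up 84.5% and 92.4% on chow and 47.4% and 42.2% on HFD. In 6 clusters built without the 6 genes and numbered by rising C1q RNA, the monocytes of each mouse lay mostly in cluster 1 (93.9% and 98.5% on chow, 91.1% and 93.5% on HFD). The C1q-high cells lay in different clusters on the 2 diets, with 1.57% and 2.00% of them in cluster 2 on chow against 55.0% and 66.0% on HFD, and 45.4% and 41.2% in cluster 4 on chow against 13.3% and 5.36% on HFD. Diet differences given for C1q-high cells are thus differences between sums of unlike makeup. The Ly6C+ MHC II-high stage held only 3 and 19 chow cells and was not tested between diets. CPM are UMIs scaled to a sum of 1000000. Plac8, a monocyte marker that did not set the stages, stood in the monocyte stage at 5978 and 7934 CPM on chow and at 13433 and 11948 CPM on HFD. In C1q-high cells it stood at 55.4 and 126 CPM on chow and at 1770 and 2310 CPM on HFD, so the C1q-high cells of the HFD mice carried more of this monocyte RNA.

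On chow, Fcgr4 was the one of the 4 Fcgr genes, Fcgr1, Fcgr2b, Fcgr3 and Fcgr4, whose RNA differed most between the ends of the stage series. It stood at 28.7 and 78.0 CPM in monocytes of chow 9 and chow 11 and at 292 and 397 CPM in their C1q-high cells, a 10.2-fold and a 5.09-fold difference. On HFD it stood at 213 and 258 CPM in monocytes and at 269 and 302 CPM in C1q-high cells, a 1.26-fold and a 1.17-fold difference. The step that separated both ends in each chow mouse was thus nearly absent in each HFD mouse. In the HFD mice, Ly6C+ MHC II-high cells held 173 and 180 CPM and Ly6C- MHC II-high cells 177 and 134 CPM, so the stages between lay below both ends there.

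Fcgr2b, the inhibitory receptor, was higher in C1q-high cells than in monocytes in all 4 mice. It stood at 407, 537, 532 and 562 CPM in monocytes of chow 9, chow 11, HFD 1 and HFD 3, and at 780, 775, 944 and 886 CPM in their C1q-high cells, which is 1.45-fold to 1.92-fold higher. In the stages between, the HFD mice held 703 and 720 CPM in Ly6C+ MHC II-high and 600 and 679 CPM in Ly6C- MHC II-high cells. Chow 9 and chow 11 held 870 and 623 CPM in Ly6C- MHC II-high cells, so chow 9 stood above its own C1q-high cells there. Their Ly6C+ MHC II-high values, 1157 and 721 CPM, rest on 3 and 19 cells.

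Fcgr3, the most abundant IgG receptor RNA in monocytes by UMIs, had no common direction. Its level in C1q-high cells was 1.06 and 1.19 times that in monocytes on chow and 0.849 and 0.825 times that on HFD. Its lowest stage in all 4 mice was Ly6C- MHC II-high, at 562 and 532 CPM on chow against 418 and 636 CPM on HFD. Fcgr1, whose protein was gated on, stood between 0.669 and 1.00 times its monocyte level in C1q-high cells.

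Fcer1g, the shared signalling chain, was the most abundant member and the most even one. Its level in C1q-high cells was 0.838 to 0.917 times that in monocytes over the 4 mice, and 98.5% to 100% of monocytes had at least 1 UMI. Fcgrt was the rarest. It had 1, 1, 7 and 12 UMIs in the monocytes of chow 9, chow 11, HFD 1 and HFD 3, and it reached 39.4 and 23.6 CPM in C1q-high cells on chow and 24.2 and 22.5 CPM on HFD. UMIs of a 3′ library count molecules rather than reads along a transcript, so levels of different genes were set side by side without a length scaling, though capture can differ between genes.

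**Figure D1:**
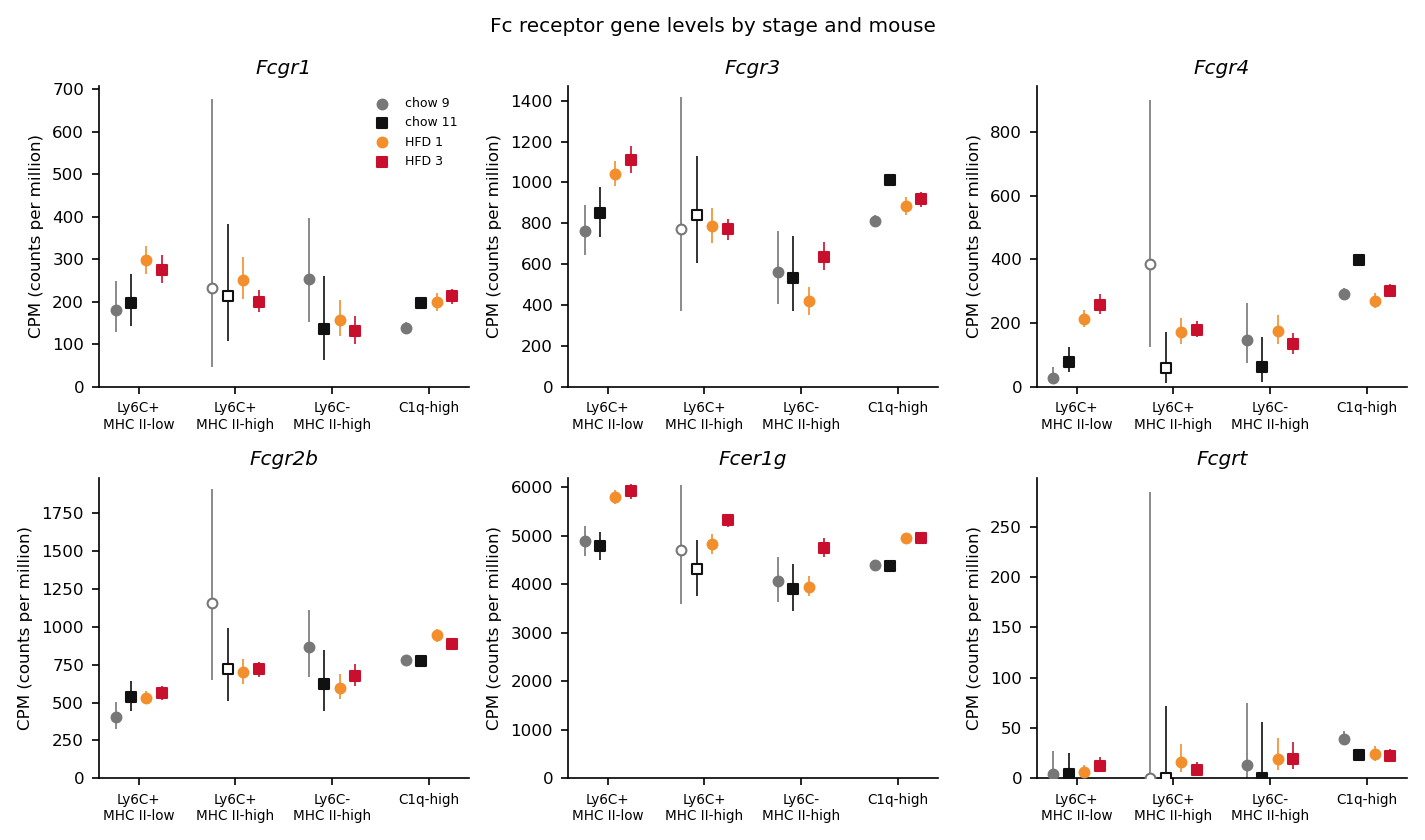
CPM of the 6 genes by stage for chow 9, chow 11, HFD 1 and HFD 3, 1 point per mouse with the exact 95% Poisson interval, which covers counting error only; open points rest on under 20 cells. Fcgr4 in Ly6C+ MHC II-low cells lay at 28.7 and 78.0 CPM on chow against 213 and 258 CPM on HFD, while both diets overlapped in C1q-high cells.

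Between diets, Fcgr4 RNA in monocytes was the one member past the threshold in any stage. Chow 9 held 6 UMIs in 66 monocytes and chow 11 held 17 in 68, against 236 in 280 and 252 in 325 for HFD 1 and HFD 3. The mean was 53.3 ± 34.8 CPM on chow against 236 ± 32.1 CPM on HFD (SD, n = 2 mice each), a ratio of 4.42, and both HFD mice exceeded both chow mice. The counting intervals of the chow mice, 10.5 to 62.5 and 45.4 to 125 CPM, ended below those of the HFD mice, which began at 187 and 227 CPM. In edgeR's quasi-likelihood test over 4570 genes the log2 fold change was 2.01 (SE 0.35, FDR 0.00450), and with a mouse left out it ran from 1.47 without chow 9 to 2.92 without chow 11, past the 1% threshold each time. Each of these fits leaves 1 mouse in 1 diet, which is taken to vary like the mice of the other diet, so their FDR values say little about stability. Among all genes tested in that stage, 0.810% were called and 29.1% had both HFD mice above both chow mice. With 2 mice per diet an exact permutation test cannot go below p = 0.333.

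The share of monocytes with Fcgr4 RNA was higher in both HFD mice than in either chow mouse. With each cell thinned to 1500 UMIs, 6.56% and 10.6% of chow monocytes and 18.8% and 25.3% of HFD monocytes had an Fcgr4 UMI, with 5 and 2 cells left out as too shallow on chow and 20 and 33 on HFD. The Wilson interval of HFD 1, 14.6% to 24.0%, overlapped those of chow 9 (2.58% to 15.7%) and chow 11 (5.23% to 20.3%), while that of HFD 3 began at 20.7%, and the differences were not tested. Without thinning the shares were 9.09%, 19.1%, 34.3% and 34.8%. The largest count in a single monocyte was 1 and 2 UMIs on chow and 12 and 11 UMIs on HFD. These maxima were taken without thinning over 66 and 68 cells on chow and 280 and 325 on HFD. A maximum can grow with the number of cells, so it gives no contrast between diets. The authors kept the cells they annotated as monocytes or macrophages, which can express Fcgr4, so no cell type without the gene was at hand to measure the share that free RNA gives. C1q-high cells, thinned likewise, had an Fcgr4 UMI in 30.9% and 39.6% of cells on chow and in 28.3% and 29.1% on HFD. The median depth of monocytes was 3063 and 3021 UMIs on chow and 3994.5 and 2920 UMIs on HFD, so HFD 3 was not deeper than the chow mice.

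**Figure D2:**
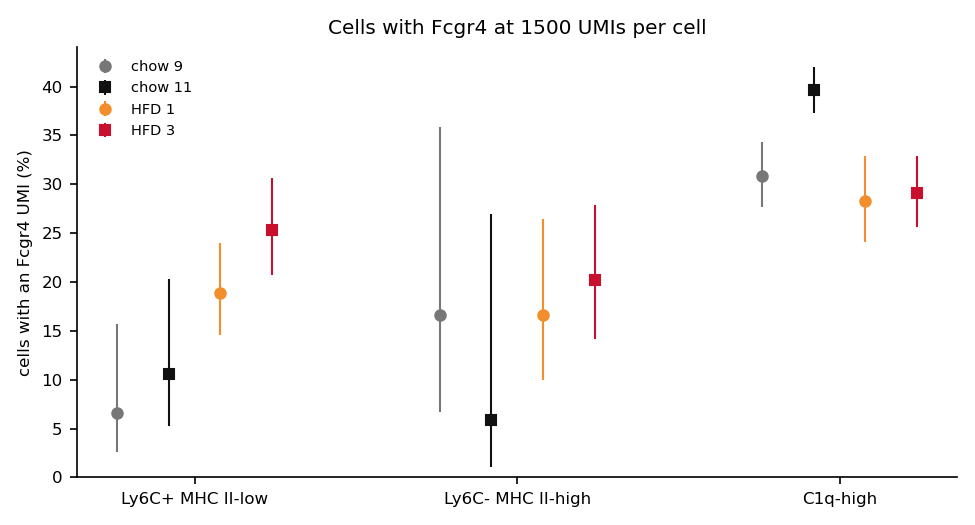
Percent of cells with at least 1 Fcgr4 UMI after thinning to 1500 UMIs per cell, by stage and mouse, with 95% Wilson intervals that cover counting error only. Monocytes (Ly6C+ MHC II-low) of the HFD mice lay at 18.8% and 25.3%, those of the chow mice at 6.56% and 10.6%.

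Other cell types were looked for in the same monocyte sums. Of 8 Ly6C-low blood monocyte markers, all had UMIs, and their sum was 1454 and 1137 CPM on chow against 958 and 907 CPM on HFD. Most of it was Nr4a1, at 1310 and 940 CPM on chow against 774 and 740 CPM on HFD. In chow 9, chow 11, HFD 1 and HFD 3, Treml4 stood at 47.8, 50.4, 51.4 and 63.6 CPM and Ace at 4.78, 13.8, 16.2 and 13.3 CPM. In the same order Adgre4 stood at 23.9, 64.2, 67.7 and 36.9 CPM and Spn at 23.9, 36.7, 25.3 and 23.6 CPM. Eno3 stood at 23.9, 9.17, 9.02 and 8.20 CPM, Pglyrp1 at 19.1, 13.8, 13.5 and 20.5 CPM and Cd300e at 0, 9.17, 0 and 1.03 CPM. Of the resident macrophage markers, 8 of 9 were detected with Lyve1 at 0, summing to 866 and 1637 CPM on chow against 549 and 714 CPM on HFD. Of 8 neutrophil markers 2 were in the table, Mmp9 at 0 and Csf3r at 57.4 to 71.3 CPM over the 4 mice. Of 6 natural killer markers 4 had UMIs, with Ncr1 and Klrb1c at 0, and they summed to 0 and 13.8 CPM on chow against 16.2 and 20.5 CPM on HFD. In chow 9, chow 11, HFD 1 and HFD 3, Klrd1 stood at 0, 4.59, 9.93 and 9.23 CPM and Nkg7 at 0, 0, 1.80 and 7.18 CPM. Gzma stood at 0, 9.17, 3.61 and 4.10 CPM, so chow 11 lay above both HFD mice for it. Of 5 T cell markers 3 had UMIs, with Cd3e at 0, and they summed to 0 in both chow mice and to 2.71 and 22.6 CPM in HFD 1 and HFD 3. Of 6 dendritic cell markers 5 had UMIs, with Itgae at 0, at 124 and 105 CPM on chow against 58.7 and 67.7 CPM on HFD. B and plasma cell markers, 3 of 6 in the table, summed to 25711 and 12634 CPM on chow against 3541 and 2363 CPM on HFD. Nearly all of this was 1 gene, Jchain, at 25663 and 12575 CPM on chow against 3522 and 2339 CPM on HFD. In chow 9, chow 11, HFD 1 and HFD 3, Cd79a stood at 9.57, 27.5, 5.41 and 0 CPM and Cd79b at 38.3, 32.1, 13.5 and 24.6 CPM. Epithelial markers reached 541 CPM in HFD 3 and at most 4.59 CPM in the other mice. The part of these cells in the Fcgr4 difference was not tested.

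Cells outside the 4 stages, with neither Ly6c2, MHC II nor C1q past the limits, gave a like picture for Fcgr4. Of these cells 133 lay in cluster 1, which held most monocytes, and 47 in cluster 2, so they are no independent group. They held 27.7 and 38.0 CPM in chow 9 and chow 11 (6 UMIs in all) and 257 and 232 CPM in HFD 1 and HFD 3 (50 UMIs in all). Fcgr1 in these cells went the other way than in monocytes, at 111 and 165 CPM on chow against 54.1 and 105 CPM on HFD. Plac8 in them moved with diet too, at 5006 and 5389 CPM on chow against 11343 and 10155 CPM on HFD. Epithelial markers, 4 of 4 with UMIs, summed to 0 and 444 CPM on chow against 460 and 1627 CPM on HFD. B and plasma cell markers summed to 184 and 2371 CPM on chow, all of it Jchain. On HFD they summed to 54.1 and 60.0 CPM, of which Jchain gave 54.1 and 30.0 CPM. The part of these markers in the Fcgr4 values was not tested. No test was made on these cells.

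In C1q-high cells, whose clusters differed between diets, Fcgr4 did not pass the threshold. It stood at 292 and 397 CPM on chow against 269 and 302 CPM on HFD, overlapping between diets, with a log2 fold change of -0.42 (SE 0.17, FDR 0.110). In Ly6C- MHC II-high cells it stood at 147 and 60.8 CPM on chow against 177 and 134 CPM on HFD, again overlapping (log2 fold change 0.49, SE 0.45, FDR 0.667), from 11 and 4 chow UMIs. With a mouse left out this fold change ran from 0.03 without chow 11 to 1.27 without chow 9. Of all genes, 10.5% were called in C1q-high cells and 1.97% in Ly6C- MHC II-high cells.

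The difference between both diet effects was fitted directly, with a term for each mouse. The effect on Fcgr4 in monocytes exceeded that in C1q-high cells by 2.49 on the log2 scale (SE 0.31, FDR 0.000280), where 1.06% of 5391 genes were called. Without chow 11 the difference was 3.17 with FDR 0.0157 and no longer past the threshold. For Fcgr3 it was 0.51 (SE 0.17, FDR 0.151), for Fcgr1 0.38 (SE 0.23, FDR 0.472), for Fcer1g 0.18 (SE 0.18, FDR 0.684) and for Fcgr2b 0.06 (SE 0.20, FDR 0.915).

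The other activating receptors did not pass the threshold in any stage. In monocytes Fcgr1 stood at 182 and 197 CPM on chow against 298 and 276 CPM on HFD, so the diets did not overlap, with a log2 fold change of 0.48 (SE 0.22, FDR 0.366). Fcgr3 stood at 760 and 848 CPM on chow against 1041 and 1111 CPM on HFD, also without overlap (0.30, SE 0.18, FDR 0.520). In C1q-high cells Fcgr1 was at 139 and 198 CPM on chow against 199 and 213 CPM on HFD (0.14, SE 0.18, FDR 0.623). Fcgr3 was at 809 and 1011 CPM on chow against 883 and 917 CPM on HFD, which overlapped (-0.16, SE 0.14, FDR 0.443). In Ly6C- MHC II-high cells Fcgr1 stood at 254 and 137 CPM on chow against 157 and 130 CPM on HFD, which overlapped (-0.52, SE 0.39, FDR 0.565). Fcgr3 overlapped there too (-0.10, SE 0.27, FDR 0.918).

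Fcer1g followed the same outline at a far higher level. Its monocyte values were 4878 and 4779 CPM on chow against 5787 and 5910 CPM on HFD, without overlap (0.16, SE 0.17, FDR 0.752), and its C1q-high values were 4400 and 4380 CPM on chow against 4950 and 4953 CPM on HFD (0.03, SE 0.12, FDR 0.894). The CPM of C1q-high cells and the fold change differ here because the fit rescales libraries: without its TMM factors the median log2 fold change of all genes in C1q-high cells moved from -0.02 to 0.13. In monocytes it moved from -0.02 to 0.10.

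Fcgr2b and Fcgrt did not pass the threshold either. Fcgr2b overlapped between diets in monocytes (0.10, SE 0.20, FDR 0.912) and stood higher in both HFD mice in C1q-high cells, at 944 and 886 CPM against 780 and 775 CPM (0.09, SE 0.12, FDR 0.645). Fcgrt was too rare for the test in monocytes, where 5 of the 6 members entered, and overlapped in C1q-high cells (-0.55, SE 0.29, FDR 0.216). In all, both HFD mice exceeded both chow mice for 4 of 5 members in monocytes, where 29.1% of all genes did. They did so for 1 of 6 in Ly6C- MHC II-high cells, where 30.2% of all genes did, and for 3 of 6 in C1q-high cells, where 42.0% did. The 1 in Ly6C- MHC II-high cells was Fcgrt, with 1 and 0 UMIs on chow against 7 and 10 on HFD. It was found in 3.85% and 0% of chow cells there against 6.12% and 5.71% of HFD cells. Fcgrt thus met the 5% filter through the HFD cells, and its lack of overlap is no finding. At an unadjusted p under 0.05 the quasi-likelihood test held 2 members in monocytes, 0 in Ly6C- MHC II-high cells and 1 in C1q-high cells, where 13.2%, 15.2% and 36.0% of all genes passed that limit. DESeq2 called 1, 0 and 0 members and 0.722%, 0.830% and 12.0% of all genes.

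**Figure D3:**
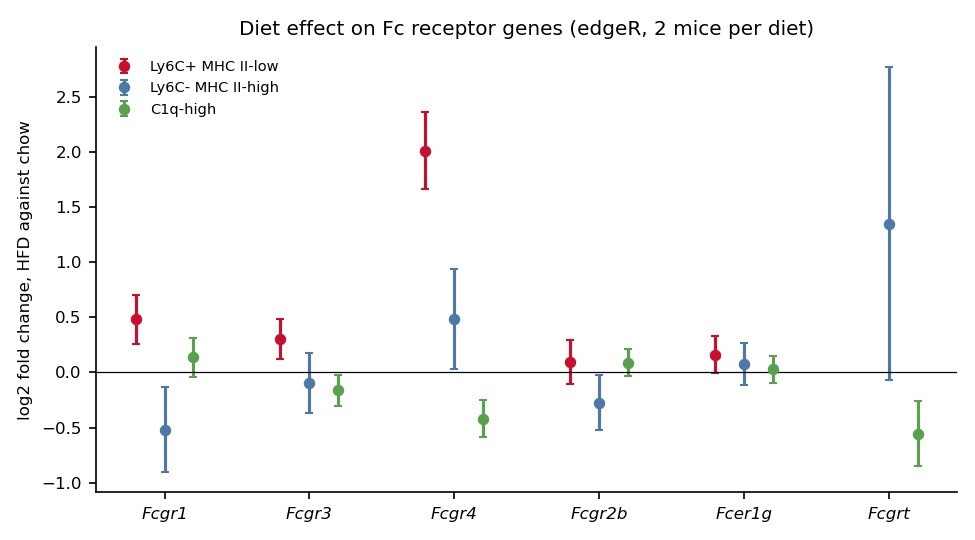
Log2 fold change (HFD against chow) of each member from the edgeR fit, with bars of 1 standard error, in the 3 stages with at least 20 cells in every mouse; Fcgrt was not tested in Ly6C+ MHC II-low cells. Fcgr4 in these cells stood at 2.01, and every other value missed the 1% threshold.

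Summed over all cells of a mouse, Fcgr4 pointed the other way. It stood at 267 and 380 CPM on chow against 233 and 252 CPM on HFD, so the HFD mice did not reach either chow mouse, with a log2 fold change of -0.64 (SE 0.18, FDR 0.0354), while in monocytes it rose. The stage levels of the HFD mice were then weighted by the mean share of UMIs, not of cells, that each stage held in the chow mice. Cells outside the 4 stages were included. With this weighting the HFD mean of Fcgr4 moved from 243 to 280 CPM, against 324 CPM on chow. Fcgrt also lay lower in both HFD mice, at 17.8 and 17.0 CPM against 36.0 and 22.5 CPM (-0.95, SE 0.26, FDR 0.0351), and the same weighting moved its HFD mean from 17.4 to 22.5 CPM, against 29.3 CPM on chow. Fcgr2b had a mean of 759 CPM on chow against 762 CPM on HFD over all cells. Its log2 fold change was -0.22 (SE 0.10, FDR 0.152) after TMM scaling and 0.0049 without it. With the same weighting by chow UMI shares its HFD mean came to 887 CPM. Neither Fcgr4 nor Fcgrt passed the 1% threshold, and both values depended on which chow mouse was left out. Fcgr4 was at -0.88 (FDR 0.00340) without chow 9 and at -0.38 (FDR 0.0726) without chow 11. Fcgrt was at -0.61 (FDR 0.0629) without chow 9 and at -1.29 (FDR 0.00552) without chow 11. Without HFD 1 the FDR was 0.173 for Fcgr4 and 0.133 for Fcgrt, and without HFD 3 it was 0.152 and 0.189. Over all cells 16.2% of genes were called, 50.4% had both HFD mice above and 21.4% both below. Of the members, Fcgr1 and Fcer1g lay above, and Fcgr4 and Fcgrt below.

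Activating and inhibitory receptors were then compared within each sum, which needs no scaling between libraries. In monocytes, UMIs of Fcgr1, Fcgr3 and Fcgr4 together were 2.39 and 2.09 times those of Fcgr2b in chow 9 and chow 11 and 2.92 and 2.93 times in HFD 1 and HFD 3, a mean of 2.24 ± 0.208 on chow and 2.92 ± 0.00730 on HFD (SD, n = 2). The HFD mice stood above the chow mice without overlap. These SDs leave out counting error, and the chow ratios rest on 85 and 117 Fcgr2b UMIs. Of the UMIs of the 4 receptors, Fcgr2b held 29.5% in chow 9 (Wilson interval 24.5% to 35.0%) and 32.3% in chow 11 (27.7% to 37.3%). It held 25.5% in each HFD mouse (23.8% to 27.3% in HFD 1, 23.7% to 27.3% in HFD 3). The interval of chow 9 took in both HFD values, while that of chow 11 lay above both HFD intervals. The difference was not tested. In C1q-high cells the ratio was 1.59 and 2.07 on chow and 1.43 and 1.62 on HFD and overlapped between diets. Among the 3 tested stages, Ly6C- MHC II-high cells had the lowest ratio in each of the 4 mice, at 1.11 and 1.17 on chow and 1.25 and 1.33 on HFD. The chow mice differed from each other by more in C1q-high cells than in any other tested stage.

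Each receptor was set against Fcgr2b in turn. In monocytes Fcgr4 stood at 0.108 ± 0.0528 and 0.430 ± 0.0418 UMIs per Fcgr2b UMI, Fcgr1 stood at 0.407 ± 0.0562 and 0.526 ± 0.0491, and Fcgr3 at 1.73 ± 0.205 and 1.97 ± 0.0145 (chow and HFD, SD, n = 2). Fcgr4 made up 2.08% and 4.70% of the UMIs of the 4 IgG receptors in chow monocytes and 10.2% and 11.7% in HFD monocytes, while Fcgr3 held 55.2% and 51.1% on chow and 49.96% and 50.35% on HFD. In C1q-high cells the share of Fcgr4 was 14.4% and 16.7% on chow and 11.7% and 13.0% on HFD. UMIs of Fcer1g outnumbered those of the 3 activating receptors in every sum, by 5.02 and 4.25 times in chow monocytes and by 3.73 and 3.59 times in HFD monocytes.

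**Figure D4:**
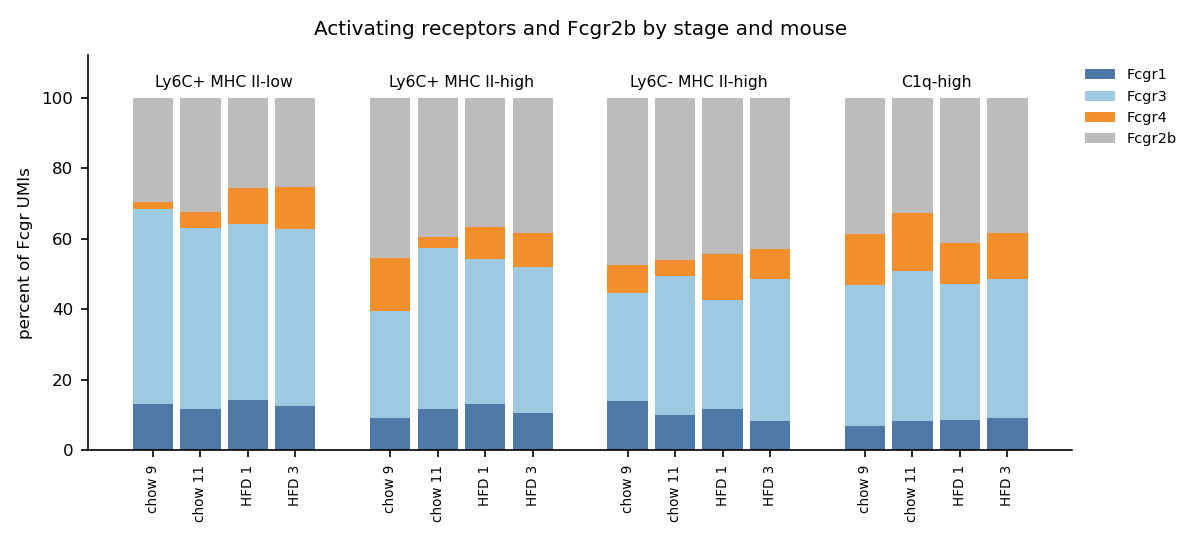
Share of each receptor among the UMIs of Fcgr1, Fcgr3, Fcgr4 and Fcgr2b in percent, 1 bar per mouse and stage; the bars of chow 9 and chow 11 in Ly6C+ MHC II-high cells rest on 3 and 19 cells. In Ly6C+ MHC II-low cells Fcgr4 took 2.08% and 4.70% on chow and 10.2% and 11.7% on HFD.

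C1q-high macrophages are not uniform, so they were divided by Lyve1 or Cd163 UMIs, which mark a perivascular type, and by Cd4 UMIs. Cells with Cd4 held 311 and 479 CPM of Fcgr4 on chow and 367 and 410 CPM on HFD, above the cells with none of the 3 genes in each mouse (290, 382, 265 and 299 CPM in chow 9, chow 11, HFD 1 and HFD 3). Cells with Lyve1 or Cd163 held less, at 210 and 288 CPM on chow. On HFD only 7 and 6 such cells were found, with no Fcgr4 UMI in 14976 and 17229 UMIs. Fcgr2b in these chow cells stood at 839 and 751 CPM, near the 778 and 774 CPM of the cells with none of the 3. The Cd4 cells of the HFD mice numbered 25 and 27, and no test was made.

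Genes with a like course were sought over the 12 sums of 3 stages and 4 mice, which share mice and depth, by Pearson's r of log2(CPM + 1) among 2527 other genes (2528 for Fcgrt) with a mean of at least 50 CPM. The closest to Fcgr4 were Mt1, a metallothionein (r = 0.88), the chemokine receptor gene Ccr1 (0.86) and Sdcbp, encoding syntenin (0.84). Ccr1 stood at 244 and 293 CPM in chow monocytes and at 619 and 527 CPM in HFD monocytes. For Fcgr3 the closest were Ly6c2 (0.82), which set the stages, Fcer1g (0.81) and Mpeg1, encoding perforin-2 (0.80). Fcgr2b was closest to Sdc4, encoding syndecan-4 (0.93), Fam213b (0.91) and Lpcat2 (0.91). Fcgr1 was closest to Aldh3b1 (0.85), Ptpn18 (0.82) and Eif4g3 (0.80), and Fcer1g to Lst1 (0.89), Cept1 (0.87) and Tram1 (0.86). Fcgrt, itself below that mean, was closest to Itm2c (0.89), Mrpl13 (0.87) and Amz1 (0.86). Fcgrt had 1 and 1 UMIs in chow monocytes and 1 and 0 in Ly6C- MHC II-high cells of chow 9 and chow 11. In that sum of chow 11 Amz1 stood at 0 CPM too, so the r values of Fcgrt rest in part on very low counts.

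The partners of the receptors were taken as lists. Of the kinases and adaptors that carry the activating signal, 18 of 20 were tested in monocytes and none passed in edgeR's quasi-likelihood test (1 at an unadjusted p under 0.05, 0 called by DESeq2). Values there were, for Syk, the kinase that docks on the gamma chain, a log2 fold change of -0.08 (SE 0.33) and for Lyn 0.04 (SE 0.20). In Ly6C- MHC II-high cells 14 were tested and 0 passed, also at an unadjusted p under 0.05 and in DESeq2. In C1q-high cells, which lay mainly in cluster 2 on HFD and in clusters 3 to 6 on chow, 17 were tested and 1 rose, where 10.5% of all genes were called. It was the Src-family kinase gene Fgr, which went from 34.4 and 40.6 CPM to 100.1 and 97.4 CPM (1.24, SE 0.16, FDR 0.00179). The list had a median of 0.02 in monocytes and 0.05 in C1q-high cells, where all genes had -0.02 in each. Of the 11 genes of inhibitory signalling, among them the phosphatase genes Inpp5d (SHIP1) and Ptpn6 (SHP-1), 9 were tested in each stage and none passed in edgeR's quasi-likelihood test or DESeq2 (3, 3 and 5 at an unadjusted p under 0.05 in monocytes, Ly6C- MHC II-high and C1q-high cells, where 13.2%, 15.2% and 36.0% of all genes passed that limit and edgeR's likelihood-ratio test called 0, 0 and 1 of the list), with medians of -0.35 in monocytes, -0.87 in Ly6C- MHC II-high (all genes 0.07) and -0.39 in C1q-high cells. Inpp5d in C1q-high cells stood at 99.2 and 115 CPM on chow against 87.8 and 93.5 CPM on HFD (-0.39, SE 0.15, FDR 0.0983).

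Of 12 other receptors that use the gamma chain, 5 were tested in C1q-high cells, with the same gap in clusters, and 1 rose and 1 fell, where 10.5% of all genes were called. Clec4e, encoding the C-type lectin Mincle, rose from 34.4 and 68.2 CPM to 265 and 197 CPM (1.99, SE 0.30, FDR 0.00281). Cd300ld fell from 83.7 and 89.6 CPM to 54.9 and 42.1 CPM (-0.999, SE 0.18, FDR 0.00703). None of the 4 tested in monocytes passed in the quasi-likelihood test or DESeq2. At an unadjusted p under 0.05 the quasi-likelihood test held 1 of them, where 13.2% of all genes passed that limit. Clec4e in monocytes stood at 607 and 936 CPM on chow against 737 and 516 CPM on HFD. Of 5 tested in Ly6C- MHC II-high cells none passed in the quasi-likelihood test or DESeq2, and the likelihood-ratio test called 1. At an unadjusted p under 0.05 the quasi-likelihood test held 3 of them, where 15.2% of all genes passed that limit.

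Inhibitory receptors of other families also split. In C1q-high cells 10 of 13 were tested and 2 rose and 2 fell, against 10.5% of all genes called, again between sums that lay in different clusters. Clec12a rose from 77.9 and 70.9 CPM to 188 and 230 CPM (1.35, SE 0.15, FDR 0.000966) and Pirb, a receptor for MHC class I, from 109 and 110 CPM to 225 and 212 CPM (0.85, SE 0.14, FDR 0.00378). The sialic acid-binding lectin genes fell, Cd33 from 195 and 132 CPM to 61.4 and 39.2 CPM (-1.86, SE 0.27, FDR 0.00257) and Siglece from 39.4 and 41.1 CPM to 15.1 and 16.4 CPM (-1.50, SE 0.21, FDR 0.00223). In Ly6C- MHC II-high cells 1 of 10 passed, where 1.97% of all genes did. It was Clec4a2, which fell from 522 and 471 CPM to 174 and 228 CPM (-1.34, SE 0.29, FDR 0.00167). Of 9 resident macrophage markers 8 had UMIs in these sums, with Lyve1 at 0, and they summed to 1218 and 1961 CPM on chow against 583 and 736 CPM on HFD, and their part in the fall was not tested. DESeq2 called 0 there, and without HFD 1 or without HFD 3 edgeR called 0 of the listed genes. In monocytes none of 9 passed in the quasi-likelihood test or DESeq2, where the former called 0.810% of all genes. At an unadjusted p under 0.05 the quasi-likelihood test held 3 of the 9, where 13.2% of all genes passed that limit.

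Of 11 further Fc receptor and Fc receptor-like genes only Fcrls could be tested, and of the stages only in C1q-high cells, where it fell from 344 and 364 CPM to 63.0 and 39.6 CPM (-2.95, SE 0.22, FDR 0.000172). Antibody transcripts themselves fell where they were tested in these cells, with 3 of 3 past the threshold. Of all genes, 10.5% were called there. Igha went from 1532 and 1782 CPM to 69.4 and 55.3 CPM (-4.89, SE 0.18, FDR 1.85e-05), Jchain from 1104 and 1296 CPM to 67.3 and 47.4 CPM (-4.55, SE 0.21, FDR 3.13e-05) and Ighm from 301 and 291 CPM to 179 and 151 CPM (-0.99, SE 0.15, FDR 0.00279). In monocytes Igha (-1.69, SE 0.17) and Jchain (-2.82, SE 0.28) fell as well, both at an FDR of 2.13e-05, where 0.810% of all genes were called. Ighm did not pass there (-0.19, SE 0.22, FDR 0.798). With clusters in place of the marker ranges 1 of the listed genes was called in monocytes, and with the C1q and MHC II limits 1 log2 unit lower 0 were. At an unadjusted p under 0.05 the quasi-likelihood test held 2 of 3 in Ly6C- MHC II-high cells, where 15.2% of all genes passed that limit. There 0 of 3 passed the threshold in that test or DESeq2, and the likelihood-ratio test called 1. These genes are transcribed by B and plasma cells, and the part of free RNA was not tested. The marker list of these cells summed in C1q-high cells to 1154 and 1351 CPM on chow against 95.8 and 70.3 CPM on HFD. Most of that sum was Jchain itself, so the list adds little to the fall of Jchain. Its other markers were low, with Cd79b at 49.6 and 52.8 CPM on chow against 28.5 and 22.8 CPM on HFD. Cd79a stood at 1.17 and 2.65 CPM on chow and at 0 in both HFD mice. The rises of Fgr, Clec4e, Clec12a and Pirb in C1q-high cells went with the higher level of the monocyte marker Plac8 there, given at the start, and its part in them was not tested. The falls of Cd33, Siglece, Cd300ld and Fcrls went with lower resident macrophage markers, of which 9 of 9 were lower in each HFD mouse than in either chow mouse, C1qa, C1qb and C1qc, which set the stage, among them. Adgre1, encoding F4/80, stood at 692 and 691 CPM on chow against 292 and 223 CPM on HFD, Cx3cr1 at 485 and 521 CPM against 197 and 146 CPM, and Cd4 at 104 and 91.1 CPM against 19.4 and 15.0 CPM, and their part in the falls was not tested. The 11 list genes called in C1q-high cells came down to 3 without HFD 1 and to 3 without HFD 3. With clusters in place of the marker ranges, where the cluster held 61 and 35 HFD cells, none of them was called.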

How the data were processed

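Per the labels and the methods of the study, the authors sequenced 1 library (Single Cell 3′ v2, 10x Genomics) per mouse, counted UMIs on the mm10 transcriptome of Ensembl release 97 (bustools 0.39.2 after kallisto 0.46.0), removed poor cells, rare genes and cells not annotated as monocytes or macrophages, and deposited raw UMI counts, with no normalization. The mouse was read from the cell name. Of 11820 identifiers, 11819 were matched to GENCODE M21.

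C1q and MHC II limits were Otsu thresholds on log2(CPM + 100), at 2355 and 20142 CPM. Counts were summed per mouse and stage and tested with edgeR (version 4.0.16; quasi-likelihood, TMM, Benjamini-Hochberg FDR 1%) over genes above 1 CPM in at least 2 sums and with a UMI in at least 5% of cells. Standard errors come from the F statistic. Mice were the replicates (n = 2 per diet). The fits were tested on simulated data.

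Members and lists were chosen with earlier results of these data known. From each list the 2 largest rises and falls past the threshold without overlap are named in each stage; Syk, Lyn, Inpp5d, Ighm, Plac8 and Ccr1 values, and those of other marker genes, were picked after being seen. Scrublet (scanpy version 1.11.5) called 38 doublets (0.701%), which were kept. Alternatives were DESeq2 (version 1.42.0), other edgeR tests, no TMM, no filter, each mouse left out, doublets removed, moved limits, 2 Ly6c2 UMIs and 6 clusters rebuilt with scran (version 1.30.0) without the members. Empty droplets, protein sequences and the cluster labels of the authors were not used here, and values of 2 listed genes are not reported here.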

Additional observations from a re-analysis of the deposited data

Results flagged for a closer look

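The diet effect on Fcgr4 differed between stages in a direct fit, on values that had also served to choose the genes, so it stands as a description. The log2 fold change in Ly6C+ MHC II-low cells exceeded that in C1q-high cells by 2.49 (SE 0.31, FDR 0.000280 in edgeR's quasi-likelihood test with a term for each mouse), from 53.3 to 236 CPM in the former and from 344 to 286 CPM in the latter. Without chow 11 the difference was 3.17 with FDR 0.0157, no longer past the 1% threshold. In 2 of 2 HFD mice the monocyte level exceeded that of both chow mice. The C1q-high sums lay in different clusters on the 2 diets. With clusters in place of the marker ranges, the log2 fold change of Fcgr4 in C1q-high cells was 0.10 rather than -0.42. With 2 mice per group no sample could be checked for standing apart from its group.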

How the results depend on the processing

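Fcgr4 in monocytes kept its direction and its call under every alternative run, from 1.47 without chow 9 to 3.06 with the C1q and MHC II limits 1 log2 unit lower. No paired analysis was possible because chow mice (9 and 11) and HFD mice (1 and 3) share no replicate number. Lower limits left too few Ly6C- MHC II-high cells for a fit.

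The difference of the Fcgr4 effect between stages gave 1 call, and 0 to 1 with a mouse left out. Over all cells the members called went from 0 to 1 with the likelihood-ratio test (Fcgrt) and to 0 to 1 with a mouse left out. List genes called went in monocytes from 2 to 1 with clusters and 0 with lower limits, and ranged from 2 to 3 with a mouse left out. In Ly6C- MHC II-high cells they went from 1 to 3 with the likelihood-ratio test, 4 with clusters and 0 with adjusted degrees of freedom, DESeq2, no filter or 2 Ly6c2 UMIs, and ranged from 0 to 3 with a mouse left out. In C1q-high cells they went from 11 to 16 with the likelihood-ratio test, 0 with clusters and from 3 to 12 with a mouse left out, and over all cells from 14 to 23 with the likelihood-ratio test and from 3 to 14 with a mouse left out.

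The log2 difference of the activating to inhibitory ratio went in monocytes from 0.39 to 0.24 with lower limits and 0.28 with 2 Ly6c2 UMIs, in Ly6C- MHC II-high cells from 0.18 to 0.27 without Fcgr1, 0.26 with clusters and 0.11 with higher limits, and in C1q-high cells from -0.25 to 0.062 with clusters, -0.45 without chow 9 and -0.064 without chow 11 (-0.45 to -0.064 with a mouse left out). Over all cells it was -0.04 and ranged from -0.22 to 0.14 with a mouse left out.

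Values that missed the threshold and changed sign did so without passing it. With clusters these were Fcgr2b 0.045 and Fcgr3 0.27 in Ly6C- MHC II-high cells and Fcgr3 0.28, Fcgr4 0.10 and Fcgrt 0.88 in C1q-high cells, where the cluster held 61 and 35 HFD cells. With no filter they were Fcgr2b 0.026 and Fcgr3 0.21, and with 2 Ly6c2 UMIs Fcgr3 0.049, in Ly6C- MHC II-high cells. Over all cells Fcgr2b gave 0.0049 without TMM and Fcer1g -0.0022 without doublets. With a mouse left out the ranges were -0.093 to 0.32 for Fcgr2b in monocytes, -0.42 to 0.15 for Fcgr3 and -0.041 to 0.18 for Fcer1g in Ly6C- MHC II-high cells, -0.085 to 0.40 for Fcgr1 in C1q-high cells, -0.081 to 0.38 for Fcgr1 and -0.027 to 0.021 for Fcer1g over all cells, and -0.095 to 0.30 for the difference of the Fcgr2b effect between stages. The cause of these shifts was not tested.

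All genes called, the background given above, went in monocytes from 37 to 101 with the likelihood-ratio test, 62 without TMM, 123 with no filter, 56 with clusters, 93 without chow 9 and 121 without chow 11. In Ly6C- MHC II-high cells 88 became 50 with adjusted degrees of freedom, 37 with DESeq2, 137 with no filter, 48 with higher limits, 33 with 2 Ly6c2 UMIs, 36 without HFD 1 and 41 without HFD 3. In C1q-high cells 531 became 926 with the likelihood-ratio test, 912 with no filter, 9 with clusters, 100 without HFD 1 and 15 without HFD 3, and over all cells 805 became 1307, 1218 (no filter), 267 and 119. Counts as low as 4 Fcgr4 UMIs in Ly6C- MHC II-high cells of chow 11 limit what can be seen there.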
